A study of Homo sapiens with 5 samples.

Results

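The genes described here carry iron into the cell, store it, release it and sense it. They were chosen as a list of 10 gene symbols, and each was read from the probe that names it alone and, where a gene had several such probes, from the brightest of them on average. A probe of their own was found for 8 of the 10 (TFRC, SLC11A2, STEAP3, SLC25A37, FTL, NCOA4, SLC40A1 and ACO1), out of 18417 genes measured in all. FTH1 and IREB2 were not analysed here.

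RNA came from the human leukemia cell line RS4.11, an established line with a rearranged MLL gene, and was hybridised to 5 whole-transcript arrays. The control group was 2 arrays of cells given the solvent DMSO, and the treated group was 3 arrays of cells given 10 uM SB216763, a compound that blocks the kinase GSK-3. Both groups were collected after 20 h in culture. All cells were of 1 line. The line is commonly classed with B cell precursors, but 4 of 9 measured markers of that cell type were above background on no array. Whether replicates were separate cultures is not in the labels, so the p-values rest on array-to-array spread that could be technical alone. The values are log2 expression, and all differences are SB216763 minus control. A gene was called when its adjusted p from limma (Benjamini-Hochberg over all 18417 genes) was under 0.05, and a level was taken as above background when it passed the 95th percentile of 341 olfactory receptor genes on the same array.

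Cells take up iron mainly as transferrin bound to the transferrin receptor, reduce it in endosomes, pass it to the cytosol and mitochondria, and hold the surplus inside ferritin shells. Iron regulatory proteins bind hairpins called iron-responsive elements when iron is scarce. Bound to the ferritin messages ahead of the coding region they block translation, and bound to the transferrin receptor message behind the coding region they protect it from decay. Dividing leukemia cells are known for a high demand for iron, which ribonucleotide reductase and many other enzymes use as a cofactor.

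The hairpin of FTL is shown because it is the element by which ferritin light chain is translated according to iron, while the arrays read only how much of the message was present. It lies in the first 50 transcribed bases of the gene, in the untranslated leader, on the plus strand at chr19:48965329-48965358 of GRCh38.p14, in the RefSeq sequence. The capitals mark the bulged C and the CAGTG of the loop.
FTL iron-responsive element: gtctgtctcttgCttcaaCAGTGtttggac
The letters searched, on the forward strand, were a C, 5 bases of any kind, CAGTG and 1 further base, and the match in FTL began at base 33 of the transcript. Within the first 50 transcribed bases the same letters were found in 1.67% of 35116 RefSeq promoter windows.

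The 250 bases ahead of the transcription start of TFRC and of FTL are shown because these were the members called, in opposite directions. TFRC lies on the minus strand, with this stretch at chr3:196082091-196082340, and FTL on the plus strand at chr19:48965059-48965308, both of GRCh38.p14. Capitals mark matches on either strand to the GC box (GGGCGG), to the TATA box (TATAAA) and to the half-site of CREB and ATF factors (TGACG).
TFRC upstream sequence: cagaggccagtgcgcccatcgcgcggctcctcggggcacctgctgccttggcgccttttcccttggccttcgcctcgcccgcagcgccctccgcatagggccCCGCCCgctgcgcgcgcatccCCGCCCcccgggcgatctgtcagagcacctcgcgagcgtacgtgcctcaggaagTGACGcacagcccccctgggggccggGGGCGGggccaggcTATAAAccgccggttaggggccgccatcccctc
FTL upstream sequence: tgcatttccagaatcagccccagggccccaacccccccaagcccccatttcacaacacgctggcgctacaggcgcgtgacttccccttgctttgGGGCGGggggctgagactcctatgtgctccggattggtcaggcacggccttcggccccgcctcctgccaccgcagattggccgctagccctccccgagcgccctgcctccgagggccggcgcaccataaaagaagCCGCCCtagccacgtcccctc
A promoter window of 300 bases, 250 before and 50 after the start, was searched for 7 of the 8 measured members. There were 11 windows in all because some genes have several starts, and SLC25A37 was not among the genes searched. GGGCGG occurred in 7 of the 11 windows, or 63.6%, against 45% of all windows. TATAAA occurred in 1 of the 11, that of TFRC, 33 bases before its start, against 11.5% of all windows. TGACG occurred in 2 of the 11, those of TFRC and SLC40A1, against 24.6%. CACGTG, the E-box, occurred in 0 of the 11, against 7.26% of all windows. TGACNNNGC, the core of the antioxidant response element, occurred in 1 of the 11, a window of NCOA4, against 13.3%. These are matches of letters, given as a description.

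Among the measured members, TFRC, the transferrin receptor, fell 2.33-fold and FTL, the ferritin light chain, rose 1.33-fold, while the other 6 did not pass the test. Limma called 1 of the 8 higher, where 7.21% of all genes were called higher, and 1 of the 8 lower, where 5.92% of all genes were called lower. The median difference over the 8 was -0.06, and over all genes 0.0033. The groups did not overlap for 3 members higher with SB216763 (FTL, NCOA4 and SLC11A2) and for 2 lower (TFRC and STEAP3), where 21.6% and 19.9% of all genes were so separated. Counted by an unadjusted p under 0.05, 2 members were higher and 1 lower, where 14.3% of all genes were higher and 12.2% lower by that measure.

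**Figure D1:**
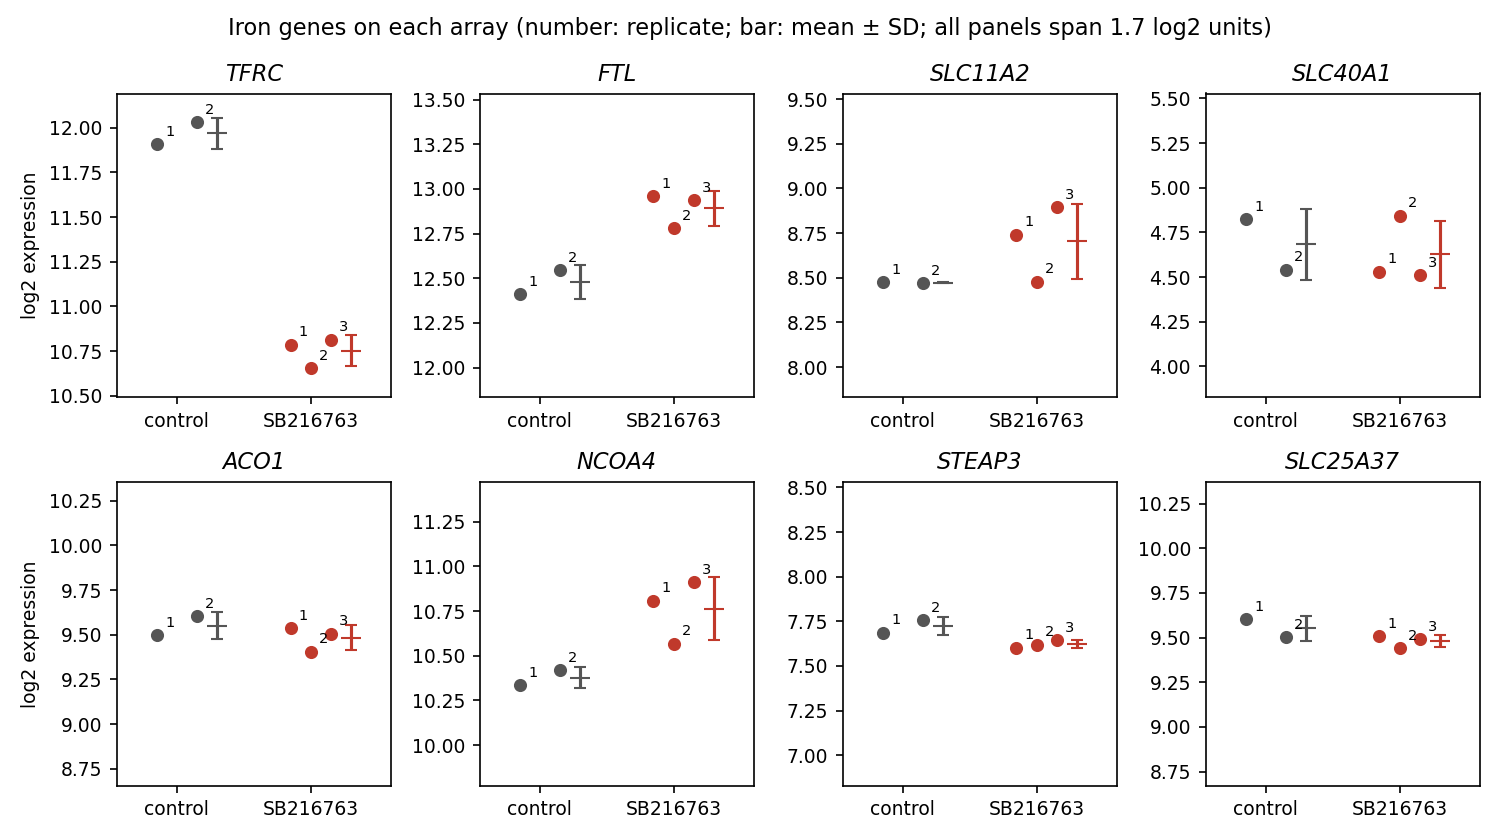
Log2 expression (vertical axis) of the 8 measured iron genes on each array, grey for control and red for SB216763, with the replicate number beside each point and the mean ± SD beside each group. Every panel has the same height in log2 units, and only TFRC and FTL were called, TFRC from 11.97 to 10.75 and FTL from 12.48 to 12.89.

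TFRC encodes the transferrin receptor, the main entry route for iron. Its log2 level was 11.91 and 12.03 on the control arrays, and 10.79, 10.65 and 10.81 on the SB216763 arrays. All 3 treated arrays lay more than 1 log2 unit below both controls. The difference was -1.22 (SE 0.09, adjusted p = 0.000553 by limma), a 2.33-fold lower level with a 95% interval of 2.02-fold to 2.68-fold. It was the 22nd largest decrease among the 18417 genes, of which 53, or 0.288%, were lower by at least 2-fold. The within-group spread was small beside this difference, with an SD of 0.09 in both groups (n = 2 and n = 3). The call rests on both controls: without control replicate 1 the difference was -1.28 (adjusted p = 0.0572 by limma), and without control replicate 2 it was -1.16 (adjusted p = 0.0567 by limma). Over all genes limma called 0.00543% without the first and 0% without the second.

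SLC11A2, the transporter DMT1 that moves iron out of the endosome once it is reduced, had log2 levels of 8.47 and 8.47 on the control arrays and of 8.74, 8.48 and 8.89 with SB216763. SB216763 replicate 2 lay next to the controls and the other treated arrays above them. The difference was 0.23 (SE 0.12, adjusted p = 0.284 by limma), with a 95% interval of -0.05 to 0.52. Without SB216763 replicate 2 the difference was 0.35 (adjusted p = 0.0436 by limma).

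STEAP3, the reductase that prepares endosomal iron for that transporter, had log2 levels of 7.69 and 7.76 in the controls and of 7.60, 7.62 and 7.64 with SB216763. Its groups did not overlap, but the difference of -0.10 (SE 0.08, adjusted p = 0.475 by limma) did not pass. The interval, -0.28 to 0.08, leaves out a change of the size seen for TFRC.

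SLC25A37, or mitoferrin, carries iron into mitochondria for heme and iron-sulfur clusters. It was read by 2 probes, which pointed in different directions. The brighter probe had log2 levels of 9.60 and 9.50 in the controls and of 9.51, 9.44 and 9.49 with SB216763, a difference of -0.07 (SE 0.08, adjusted p = 0.655 by limma). The dimmer probe had 8.68 and 8.73 in the controls and 9.08, 8.84 and 9.03 with SB216763. All 3 treated values lay above both controls on that probe, and its difference was 0.28 (SE 0.10, adjusted p = 0.173 by limma over all probes). Which transcripts each probe reads was not tested, so no direction is given for this gene.

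FTL encodes the light chain of ferritin, the subunit that helps the iron core form. Its log2 level was 12.41 and 12.55 on the control arrays and 12.96, 12.78 and 12.94 on the SB216763 arrays. Every treated array lay above both controls. The difference was 0.41 (SE 0.09, adjusted p = 0.0253 by limma), a 1.33-fold higher level with a 95% interval of 1.15-fold to 1.54-fold. FTL has processed pseudogenes elsewhere in the genome, so reads of the probe from near-identical copies are uncertain. The call was lost on leaving out control replicate 1 (0.34, adjusted p = 0.198), control replicate 2 (0.48, adjusted p = 0.114), SB216763 replicate 1 (0.38, adjusted p = 0.112) or SB216763 replicate 3 (0.39, adjusted p = 0.0743), all by limma.

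NCOA4 is the receptor that hands ferritin to autophagosomes so that its iron can be recovered in lysosomes. Its log2 levels were 10.33 and 10.42 in the controls and 10.81, 10.57 and 10.91 with SB216763. The treated arrays lay above the controls, with replicate 2 the nearest to them. The difference of 0.39 (SE 0.11, adjusted p = 0.0632 by limma) did not pass, with a 95% interval of 0.13 to 0.65. It passed without SB216763 replicate 2, at 0.48 (adjusted p = 0.0162 by limma). SB216763 replicate 2 was the lowest treated array for 6 of the 8 members, as it was for 48.1% of the 12071 genes above background on all 5 arrays, and its part in these results was not tested beyond leaving it out.

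SLC40A1 encodes ferroportin, the only known exporter of iron from cells. Its levels were 4.82 and 4.54 in the controls and 4.53, 4.84 and 4.51 with SB216763, below the background of 5.98 to 6.19 on all 5 arrays. Its difference of -0.05 (SE 0.13, adjusted p = 0.857 by limma) therefore carries little information. Ferroportin transcript was not above background in either group.

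ACO1 encodes iron regulatory protein 1, which is a cytosolic aconitase when it holds an iron-sulfur cluster and an RNA-binding protein when it does not. Its log2 levels were 9.50 and 9.60 in the controls and 9.54, 9.41 and 9.51 with SB216763, so the groups overlapped. The difference was -0.07 (SE 0.08, adjusted p = 0.694 by limma), with a 95% interval of -0.26 to 0.13. The arrays read the transcript and give no measure of which form the protein takes.

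**Figure D2:**
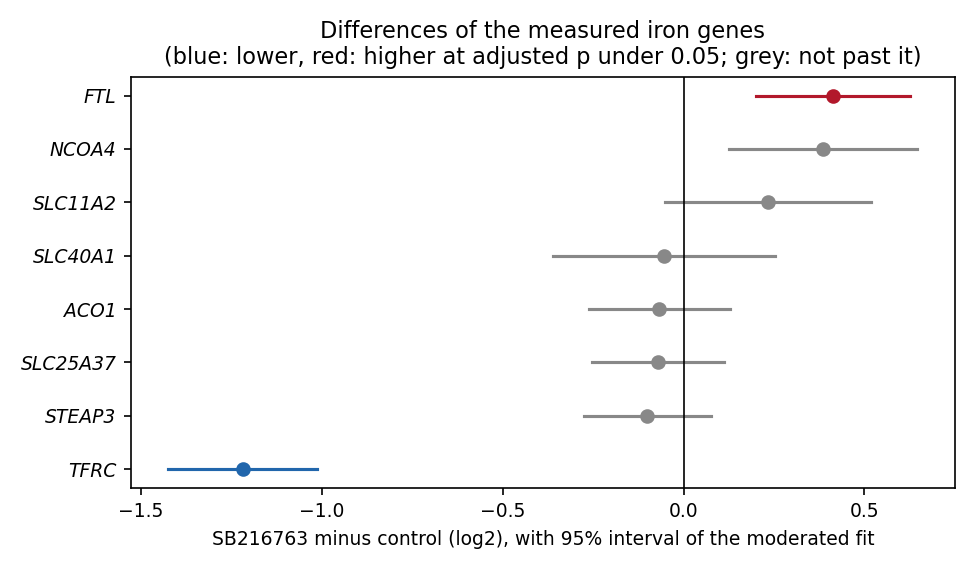
Difference between SB216763 and control (log2, horizontal axis) for the 8 measured iron genes, with the 95% interval of the moderated fit as a line. TFRC lies at -1.22 and FTL at 0.41, both apart from 0, while the intervals of SLC11A2, SLC40A1, ACO1, SLC25A37 and STEAP3 cross 0 and that of NCOA4 does not, although NCOA4 missed the adjusted threshold.

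The members called were compared with the other 12070 genes above background on all 5 arrays, by the root mean square difference of log2 values after each gene was centred on its own mean over the 5 arrays. The genes nearest to TFRC were SQLE, squalene epoxidase of cholesterol synthesis, at 0.036, and KCNN4, a calcium-activated potassium channel, at 0.037. SQLE stood at 10.93 and 11.07 in the controls and at 9.89, 9.76 and 9.86 with SB216763. KCNN4 stood at 8.73 and 8.80 in the controls and at 7.54, 7.50 and 7.59 with SB216763. Those nearest to FTL were SRPK2, a kinase of splicing factors, at 0.014, and the zinc finger gene ZNF92 at 0.015. SRPK2 differed by 0.41 and ZNF92 by 0.42 between the groups. Such likeness over 5 arrays in 2 groups is a description.

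The wider iron pathway was described with lists of further genes, 93 of them measured that are not among the 8. Of these 93, limma called 10 higher and 5 lower, or 16.1%, beside 13.1% of all genes, and their median difference was -0.0030. A share this near that of all genes is not a result about the pathway as a whole. By an unadjusted p under 0.05, 22 were higher and 8 lower, where 14.3% of all genes were higher and 12.2% lower. Leaving out control replicate 1 left 0 of the 93 called by limma, while 14 were higher and 10 lower by an unadjusted p under 0.05, a level that 19.6% of all genes reached. Leaving out control replicate 2 also left 0 called, while 18 were higher and 7 lower by the unadjusted p, which 21.5% of all genes passed.

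**Figure D3:**
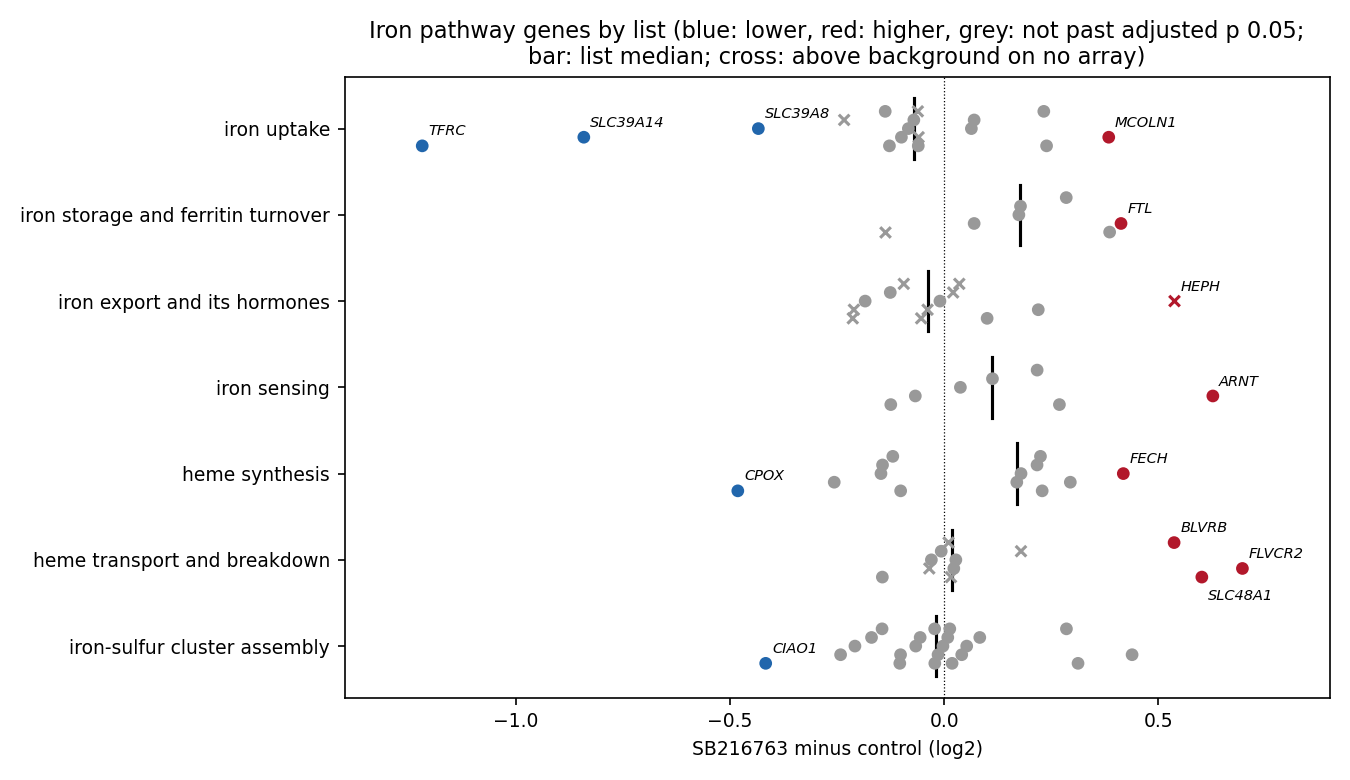
Difference between SB216763 and control (log2, horizontal axis) for every measured gene of 7 iron lists, the list members above included, with 1 point per gene, the list median as a bar and called genes named. TFRC, SLC39A14 and SLC39A8 are the called decreases of the uptake list at -1.22, -0.84 and -0.43, and FLVCR2, SLC48A1 and BLVRB the called increases of the heme transport list.

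Of 17 measured genes of iron uptake, 3 fell, 1 rose and 13 missed the threshold, where 5.92% of all genes were called lower and 7.21% higher, and the list median was -0.07. Beside TFRC the genes that fell were the metal transporters SLC39A14 and SLC39A8, known as ZIP14 and ZIP8, which bring zinc, manganese and iron not bound to transferrin across membranes. SLC39A14 had log2 levels of 9.38 and 9.46 in the controls and of 8.56, 8.62 and 8.56 with SB216763. This was a 1.79-fold lower level, a difference of -0.84 (SE 0.08, adjusted p = 0.000998 by limma), with the groups far apart. SLC39A8 had 9.88 and 9.91 in the controls and 9.48, 9.44 and 9.46 with SB216763, a difference of -0.43 (SE 0.07, adjusted p = 0.00983 by limma). MCOLN1, a lysosomal channel that lets iron and calcium out into the cytosol, rose from 9.13 and 9.03 to 9.42, 9.51 and 9.46, by 0.38 (SE 0.08, adjusted p = 0.0192 by limma). The second transferrin receptor, TFR2, differed by -0.13 (adjusted p = 0.364 by limma).

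Of 7 measured genes of iron storage and ferritin turnover, 1 rose, FTL, and 6 missed the threshold, and the list median was 0.18. For 6 of the 7 the difference was above 0, and 5 lay higher without overlap between the groups, where 21.6% of all genes did so. Only 1 of the 7 was called, or 14.3%, near the 13.1% of all genes. The iron chaperone PCBP2, which loads ferritin, differed by 0.28 (SE 0.08, adjusted p = 0.0634 by limma). FTMT, mitochondrial ferritin, was above background on no array. Of 13 measured genes of iron export and its hormones only HEPH, the ferroxidase hephaestin, was called, higher, but it was above background on no array and no fold is given. The share called was 7.69% of the 13, beside 13.1% of all genes. In that list 8 of the 13 were above background on no array. HAMP, the hormone hepcidin, stood at 6.33 and 6.61 in the controls and at 6.52, 6.41 and 6.46 with SB216763. These levels lay near the background of 5.98 to 6.19, so its difference of -0.01 (SE 0.10, adjusted p = 0.969 by limma) carries little information.

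Of 7 measured genes of iron and oxygen sensing, 1 rose and 6 missed the threshold, around a median of 0.11. The share called was 14.3%, near the 13.1% of all genes, so it is not a result about the list. ARNT, the shared partner of the hypoxia-inducible factors, rose from 9.26 and 9.24 to 9.90, 9.89 and 9.85, by 0.63 (SE 0.07, adjusted p = 0.00255 by limma). FBXL5, the ubiquitin ligase subunit that degrades iron regulatory protein when iron is plentiful, had levels of 9.09 and 9.18 in the controls and 9.47, 9.21 and 9.52 with SB216763. Its difference of 0.27 (SE 0.11, adjusted p = 0.160 by limma) did not pass.

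Heme synthesis is a main use of mitochondrial iron. Of 13 measured genes of heme synthesis, 1 rose, 1 fell and 11 missed the threshold, around a median of 0.17. The share called was 15.4%, near the 13.1% of all genes, so it is not a result about the list. FECH, which inserts iron into the porphyrin ring at the last step, rose by 0.42 (SE 0.10, adjusted p = 0.0343 by limma), from 7.57 and 7.81 to 8.12, 8.02 and 8.19. CPOX, coproporphyrinogen oxidase, fell by 0.48 (SE 0.09, adjusted p = 0.0145 by limma), from a mean of 9.08 ± 0.12 (SD, n = 2) to 8.60 ± 0.09 (SD, n = 3). ALAS1, the first and limiting enzyme outside red cells, differed by 0.29 (SE 0.08, adjusted p = 0.0548 by limma).

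Of 12 measured genes of heme transport and breakdown, 3 rose and 9 missed the threshold, where 7.21% of all genes were called higher, around a list median of 0.02. FLVCR2, a membrane transporter of the family of the heme exporter FLVCR1, stood at 7.58 and 7.60 in the controls and at 8.25, 8.34 and 8.27 with SB216763. That was 1.62-fold higher, a difference of 0.70 (SE 0.08, adjusted p = 0.00207 by limma), and the groups did not overlap. SLC48A1, which moves heme out of endosomes and lysosomes, rose by 0.60 (SE 0.11, adjusted p = 0.0142 by limma), and BLVRB, a biliverdin reductase, by 0.54 (SE 0.08, adjusted p = 0.00479 by limma). HMOX1, the inducible heme oxygenase that frees iron from heme, stood at a mean of 6.998 in the controls (SD 0.0021, n = 2) and at 6.93, 7.18 and 6.97 with SB216763. Its groups overlapped, with a difference of 0.03 (SE 0.10, adjusted p = 0.903 by limma) and a 95% interval of -0.20 to 0.25. FLVCR1 differed by -0.03 (SE 0.12, adjusted p = 0.912 by limma).

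The 22 measured genes of iron-sulfur cluster assembly, the other main use of mitochondrial iron, held 1 that fell, 0 that rose and 21 that missed the threshold, around a median of -0.02. The share called was 4.5%, beside 13.1% of all genes. All 22 were above background on all 5 arrays. The gene that fell was CIAO1, of the cytosolic targeting complex, by 0.42 (SE 0.08, adjusted p = 0.0150 by limma). An unadjusted p under 0.05 was found for 3 higher and 2 lower of the 22, where 14.3% and 12.2% of all genes passed. The mitochondrial scaffold ISCU differed by 0.01 (SE 0.10).

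Among 8 measured transcripts with a known iron-responsive element, TFRC fell, FTL rose and 6 did not pass. Over all genes 7.21% were called higher and 5.92% lower. TFRC, FTL, SLC11A2 and SLC40A1 in this list are members already described, and 2 of the 8 were above background on no array. EPAS1, a hypoxia-inducible factor whose message carries such an element in its leader as FTL does, differed by 0.22 (SE 0.08, adjusted p = 0.144 by limma). ALAS2, the heme enzyme of red cells with an element in its leader, differed by -0.26 (SE 0.14, adjusted p = 0.313 by limma).

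Of 11 measured factors reported to regulate iron genes, 3 rose, 1 fell and 7 did not pass, where 7.21% of all genes were called higher and 5.92% lower. Their median difference was 0.10. MYC, whose reported targets include TFRC, fell by 1.05 (SE 0.08), from 10.75 and 10.86 to 9.74, 9.72 and 9.80. TFE3 and TFEB, which control lysosomal genes, rose by 0.59 (SE 0.08) and 0.42 (SE 0.09), and STAT5A, a cytokine-activated factor, by 0.38 (SE 0.07). The adjusted p-values of these factors by limma lay between 0.000588 and 0.0178. NFE2L2, or NRF2, which drives ferritin under oxidative stress, and its inhibitor KEAP1 and competitor BACH1 differed by -0.15, -0.19 and 0.10, with adjusted p of 0.352, 0.192 and 0.561 by limma. Levels of these factors stand beside those of TFRC and FTL as measurements, and their part in them was not tested.

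Cell type markers were read the same way. In bulk RNA, fewer cells of a type and less RNA per cell cannot be told apart. Of the 9 markers of B cell precursors, 3 were above background on all 5 arrays (CD79B, PAX5 and VPREB3) and 4 on none (VPREB1, DNTT, RAG1 and CD22). In the controls the means of these 4 were 5.37, 4.93, 4.14 and 5.30, and CD79A stood at 6.13 and 6.25 and was above background on 4 of the 5 arrays. These levels go against the usual description of the line, and the samples are called here by their line's name alone. The mean log2 level of the 9 was 5.66 to 5.67 in the controls and 5.82 to 5.94 with SB216763, and BLNK was the 1 called, at least 1.53-fold higher (adjusted p = 0.000585 by limma), a bound set against the background because both controls were below it. Of 8 measured erythroid markers, a lineage with very high TFRC, limma called none higher or lower (0 of 8, and also 0 by an unadjusted p under 0.05). Their mean level was 6.02 to 6.15 in the controls and 5.87 to 6.16 with SB216763, and 4 of the 8, SLC4A1, AHSP, RHAG and EPB42, were above background on no array. KLF1 and EPOR were above it on all 5 arrays, with control means of 8.21 and 7.21, ALAS2 on 4 arrays and HBB on 1. Of 10 measured markers of macrophages and monocytes, cells that recycle iron, 6 were above background on all 5 arrays. Their control means were 11.92 for LYZ, 10.74 for CD68, 8.66 for CSF1R, 7.55 for MARCO, 7.02 for ITGAM and 6.35 for CD14. The level of CD14 was near the background of 5.98 to 6.19. With SB216763 CD68 rose by 1.00 (SE 0.08) and LYZ by 0.78 (SE 0.09), with adjusted p of 0.000588 and 0.00274 by limma, and 8 did not pass. The mean level of these 10 was 7.01 to 7.05 in the controls and 7.14 to 7.24 with SB216763, while CD163, MRC1, VSIG4 and SPIC were above background on no array. Of the 10 differences 5 were above 0 and 5 below, with a median of 0.0037, so the list did not move one way. Limma called 20% of these 10 and 11.1% of the 9 B cell precursor markers, beside 13.1% of all genes. CD68 and LYZ rose as FTL did, and their part in its rise was not tested. Of 4 hepatocyte markers, from the tissue that makes hepcidin and transferrin, limma called 0 of 4, and 0 passed an unadjusted p of 0.05. ALB and TTR were above background on no array, while APOA1 and SERPINA1, with control means of 7.26 and 6.61, were above it on all 5. The mean level of the 4 was 5.88 to 5.91 in the controls and 5.87 to 5.99 with SB216763.

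**Figure D4:**
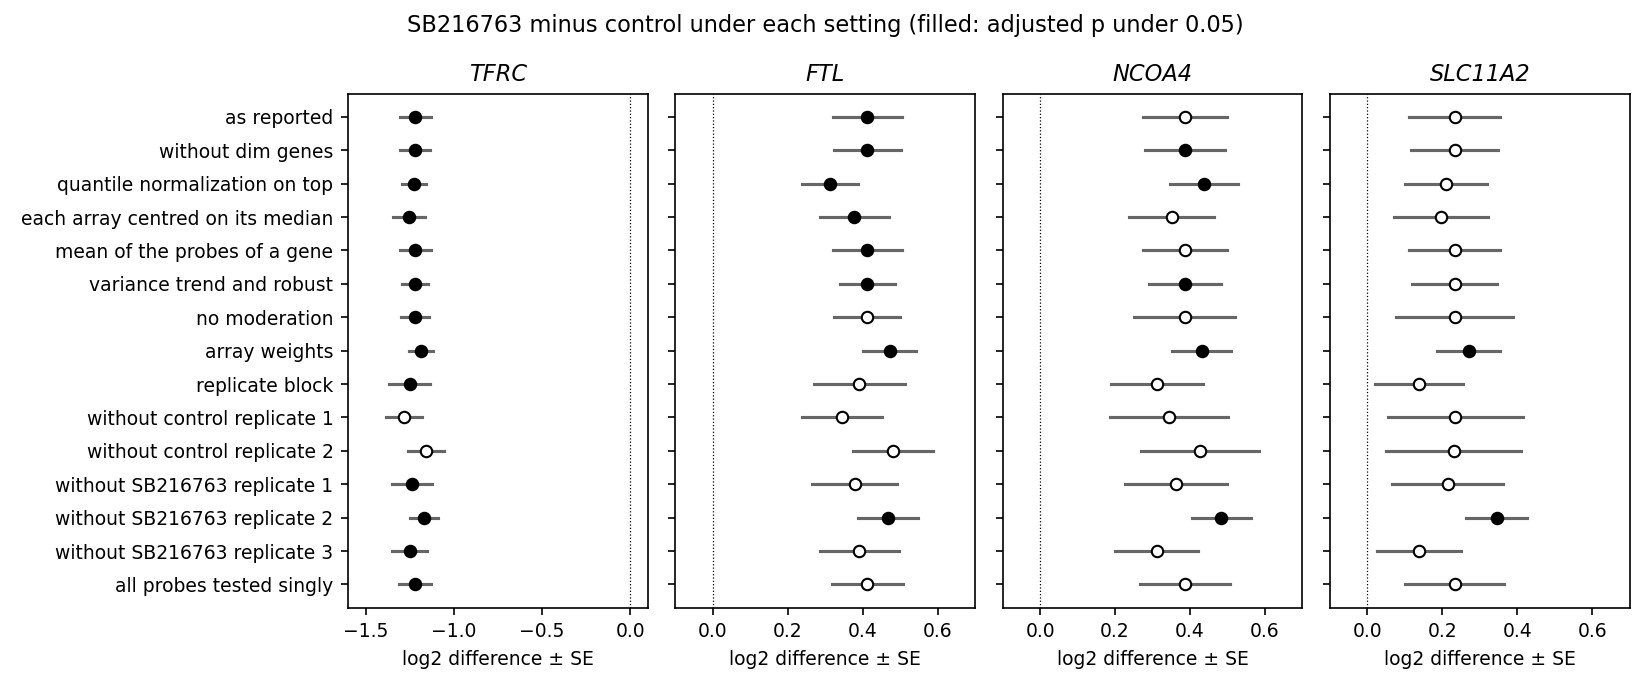
Difference between SB216763 and control (log2, horizontal axis, ± SE) of TFRC, FTL, NCOA4 and SLC11A2 under each processing setting (rows), filled where the adjusted p was under 0.05. TFRC stayed between -1.28 and -1.16 and was not filled only where a control array was left out, while FTL, between 0.31 and 0.48, and NCOA4, between 0.31 and 0.48, moved across the threshold.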

How the data were processed

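Total RNA was labelled and hybridised to 5 arrays, 2 control and 3 SB216763, grouped by sample title. The authors deposited 1 table of log2 values (log2 from the range, 1.95 to 14.84), made with Affymetrix Expression Console per the submitters' processing notes. For the summarisation, software version and genome build, nothing is given in the sources used here. Array medians were 6.77 to 6.84, and no normalization was added. Of 33297 probes, 19460 had 1 gene symbol, 1754 several and 12083 were unnamed here; the last kinds were left out. Symbols were matched through the Entrez identifier to RefSeq (GRCh38.p14) for 19429 probes. Pearson r across probes was 0.989 to 0.996 between arrays, and no pair of arrays shared more than 2.33% of values. The number of arrays limits precision.

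The fit used lmFit and eBayes of limma 3.58.1 (R 4.3.3), two-sided, with 7.62 degrees of freedom. The procedure was tested on simulated data for SB216763 against control (18417 genes), where 91.8% of 1.5-fold and 99.8% of 2-fold changes were recovered. Of the calls there, 6.00% were false. The simulation changed 200 genes and used independent normal noise with the moderated variances of the fit, shuffled among genes. These settings differ from the data, so recovery on the real arrays may differ, and a gene not called is not shown to be unchanged. Members, lists and tests were chosen with earlier results of these data known. Named were all members, up to 4 called genes per list by smallest p (otherwise the 2 with the smallest p), and the 2 genes most like each called member. Outside that rule PCBP2, FBXL5, ALAS1, HMOX1, FLVCR1, ISCU, TFR2, HAMP, FTMT, EPAS1, ALAS2, NFE2L2, KEAP1, BACH1 and the markers were named after their values were seen. The motifs of the GC box, the TATA box and the CREB half-site were added after the sequences were seen. Figures were drawn with matplotlib 3.10.9.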

Additional observations from a re-analysis of the deposited data

How the results depend on the processing

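Every alternative kept TFRC lower and FTL and NCOA4 higher, and TFRC lost its call only where a control array was left out. With 1 control array left, its spread is assumed to be that of the SB216763 arrays. Leaving out each array in turn gave differences of -1.28 to -1.16 for TFRC, 0.34 to 0.48 for FTL, 0.31 to 0.48 for NCOA4 and 0.14 to 0.35 for SLC11A2. SLC40A1, below background, ran from -0.19 to 0.09, changing sign without control replicate 1 (0.086) and without SB216763 replicate 3 (0.0047). FTL, at 0.41 (adjusted p = 0.144 by the unmoderated model and 0.0663 with all probes tested singly by limma), did not pass there, and the cause was not tested beyond that. NCOA4 passed without dim genes and with a variance trend (both 0.39), after quantile normalization (0.44) and with array weights (0.43), as did SLC11A2 with array weights (0.27). SLC25A37 turned to 0.10 with the mean of its probes and was 0.28 on its other probe, since the probes point in different directions. SLC40A1 gave no value in the fit without dim genes, as it was among those removed.

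Of the 8 members, the number called higher was 2 without dim genes, after quantile normalization and with a variance trend, 3 with array weights, and 0 without moderation, with the replicate block and with all probes tested singly. Leaving out 1 array gave 0 to 3 higher and 0 to 1 lower. Of the 93 other iron genes, 16 were higher with a variance trend, 20 with array weights, 4 without moderation (3 lower) and 6 with all probes tested singly; leaving out 1 array gave 0 to 12 higher and 0 to 5 lower. Over all genes, 126 were higher and 125 lower without moderation, 2568 and 2152 with array weights, and 689 and 569 with all probes tested singly; leaving out 1 array gave 0 to 1680 higher and 0 to 1179 lower. The cause of these shifts was not tested. Of the 15 other genes named by rule, 0 were called without either control array, 7 without SB216763 replicate 1, 13 without SB216763 replicate 3, 7 without moderation and 11 with all probes tested singly.

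Arrays with the same replicate number did not deviate together (r of -0.05 and -0.10 across genes), so no pairing by number was seen. Deviations of the control arrays from their own mean are equal and opposite, so these r values are not independent. They cannot exclude that the arrays were paired. With the replicate number as a block, SB216763 replicate 3 has a term of its own and adds nothing, and limma called 941 genes higher and 889 lower instead of 1328 and 1090. Under this block TFRC was -1.25 (adjusted p = 0.000250), FTL 0.39 (adjusted p = 0.0708) and SLC40A1 0.0047 by limma, and FECH, MCOLN1 and STAT5A were not called.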
